A study of Mus musculus with 45 samples.

Results

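The mRNA levels of 38 genes of mitochondrial and peroxisomal fatty acid oxidation were examined in sorted small-intestinal tuft cells of mice on a high fat diet (HFD) or a reference diet (RFD). The genes were chosen by name from the pathway, with earlier results of these data known. For this report 22 were assigned to mitochondria, 15 to peroxisomes and 1, Crat, to both, which does not exclude a second site for others. All 38 were among the 14020 genes tested of 36153 genes with at least 1 read. The libraries came from male C57BL/6J mice kept at 30 °C and fed an RFD with 10% of energy from fat or a mostly lard-based HFD with 60%. After 9 weeks of feeding (STF) there were 11 libraries per diet, and after 22 weeks (LTF) there were 11 on RFD and 12 on HFD, each from the sorted cells of 1 mouse. The labels give 9 weeks of feeding for both sets, so the LTF set was identified by its titles and its 22 weeks are taken from the study's methods. The cells were sorted as living EpCAM+ Siglec-F+ cells from a 20 cm stretch of small intestine, and their RNA was amplified and sequenced in bulk. Other epithelial cells that passed this gate are therefore part of each library.

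Tuft cells are rare chemosensory cells of the intestinal epithelium that release signals of type 2 immunity. Fatty acids enter the mitochondrial matrix as carnitine esters and are shortened there in repeated rounds of oxidation, hydration, oxidation and thiolysis, and the electrons taken from them pass through the electron transfer flavoprotein to the respiratory chain. Peroxisomes import very long, branched and dicarboxylic acyl-CoAs and shorten them with enzymes of their own, and PPAR receptors, which fatty acids activate, switch on many genes of both pathways in other tissues by binding a direct repeat of a short hexamer.

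The DNA between the starts of Hadha and Hadhb is shown because these genes encode the partner subunits of the mitochondrial trifunctional protein, are read in opposite directions and were both higher on HFD at 9 weeks. The stretch is the 85 bases between their annotated starts (chr5:30155163-30155247, GRCm38, plus strand), with no annotated exon, and capitals mark the GC box GGGCGG, searched on both strands.

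Hadha to Hadhb: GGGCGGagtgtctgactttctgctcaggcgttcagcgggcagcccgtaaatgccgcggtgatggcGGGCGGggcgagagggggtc

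The GC box occurred 2 times in these 85 bases and at least once in the last 85 bases before the start in 22.8% of all 32851 RefSeq mouse promoters of the GRCm38 table. A window of 300 bases around the start was listed for 31 of the 38 genes, with 2 windows for Abcd3.

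The promoters of Acaa1a and Acaa1b are shown because these neighbouring thiolase genes have near-identical transcripts and of the pair only Acaa1b was called. The 134 bases before each RefSeq start are free of annotated exons (Acaa1a chr9:119341160-119341293, plus strand; Acaa1b chr9:119157094-119157227, minus strand), and capitals again mark the GC box. GENCODE also places an Acaa1a transcript start upstream, at position 119339676, so the Acaa1a stretch lies between exons of the gene as annotated there.

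Acaa1a: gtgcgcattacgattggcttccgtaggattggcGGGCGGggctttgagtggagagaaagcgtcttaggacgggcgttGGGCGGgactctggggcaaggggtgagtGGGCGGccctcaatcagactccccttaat
Acaa1b: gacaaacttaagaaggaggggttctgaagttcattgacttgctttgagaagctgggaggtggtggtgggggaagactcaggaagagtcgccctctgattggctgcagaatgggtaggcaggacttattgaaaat

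Acaa1a held 3 GC boxes and Acaa1b none, and 27.6% of all promoters held at least 1 in a stretch of this length. In an alignment with gaps, 82 of the 134 bases were identical, and no value for unrelated stretches was computed. The transcripts shared 96.6% of their bases over a matching stretch of 1428 bases, which is a different measure.

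The promoter of Etfa, which encodes a subunit of the electron transfer flavoprotein, was the only listed window of a gene called below that held a match to the direct repeat DR1 (the hexamer AGGTCA repeated after 1 base of any kind) with at most 2 mismatches on either strand. It is shown as the 250 bases before the start (chr9:55512244-55512493, minus strand), with the match in capitals on the opposite strand.

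Etfa: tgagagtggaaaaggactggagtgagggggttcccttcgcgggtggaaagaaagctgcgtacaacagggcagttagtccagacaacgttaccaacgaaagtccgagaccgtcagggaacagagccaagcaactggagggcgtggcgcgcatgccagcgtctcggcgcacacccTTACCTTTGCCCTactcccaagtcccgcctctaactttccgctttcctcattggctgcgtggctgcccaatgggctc

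Such a match was found in 3 of the 32 windows of these genes (Etfa, Echs1 and Slc25a20) and in 3.86% of all promoters, and with at most 1 mismatch in none of the 32 and in 0.554% of all promoters.

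The libraries held 189340 to 4690213 reads on genes, and 2 libraries of the STF set were below 500000. The tuft cell markers, 14 of 15 of which were tested, took 0.0198 to 2.55% of the reads, and of these 14 only Il25 and Pou2f3 had libraries with no read. At 9 weeks their summed level ranged from 3559 to 24979 CPM on RFD (median 15370) and from 362 to 23198 CPM on HFD (median 6706), where CPM are normalized reads scaled to a common library total. All 14 had negative log2 fold changes, and none had an adjusted p under 0.1 (edgeR, 5 with unadjusted p under 0.05, 1 by DESeq2, 9 by limma). At 22 weeks their summed median was 20194 CPM on RFD and 15560 CPM on HFD, 13 of 14 were below 0 and none was called (edgeR, 3 with unadjusted p under 0.05, 0 by DESeq2 and limma). The 6 Paneth cell markers were higher in some libraries. Their summed level ranged from 52.4 to 105784 CPM on RFD (median 2666) and from 103.0 to 595077 CPM on HFD (median 26005) at 9 weeks. In the LTF set it ranged from 78.2 to 41737 CPM on RFD (median 1651) and from 29 to 142630 CPM on HFD (median 11292). None of the 6 was called by edgeR at either time (1 and 0 with unadjusted p under 0.05, 2 and 0 by DESeq2, 0 by limma). The Paneth cell markers took more than 5% of the reads in 2 RFD and 4 HFD libraries of the STF set and in 2 HFD libraries of the LTF set. In the LTF set, the library of mouse 3 on RFD had 8580 genes with a read, against 12667 to 22337 in the others of its set, and 7 of the 38 genes had no read there. Results that rest on these libraries are given below with and without them.

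Markers of other cell types also differed between the diets. At 22 weeks, 2 of 7 enteroendocrine cell markers fell by edgeR, Cck (median 37.8 CPM on RFD and 0 on HFD, adjusted p = 0.0062) and Gcg (median 1.58 and 0 CPM, adjusted p = 0.0279), and 6 of 7 had an unadjusted p under 0.05 in the lower direction. Of these 7 markers, DESeq2 called 2 and limma called 0. Of 14 enterocyte markers, Rbp2 rose at both times (log2 fold changes 1.32 and 1.58) and Mttp at 22 weeks (1.04), while Apoc3 fell at 9 weeks (-1.56) and Slc5a1 at 22 weeks (-1.36). Of 5 stem cell markers, Olfm4 rose at 9 weeks (2.05). The part of these cell types in the results below was not tested. The fits below with the enterocyte marker score do not decide it for enterocytes, since the score averages markers that moved in opposite directions.

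**Figure D1:**
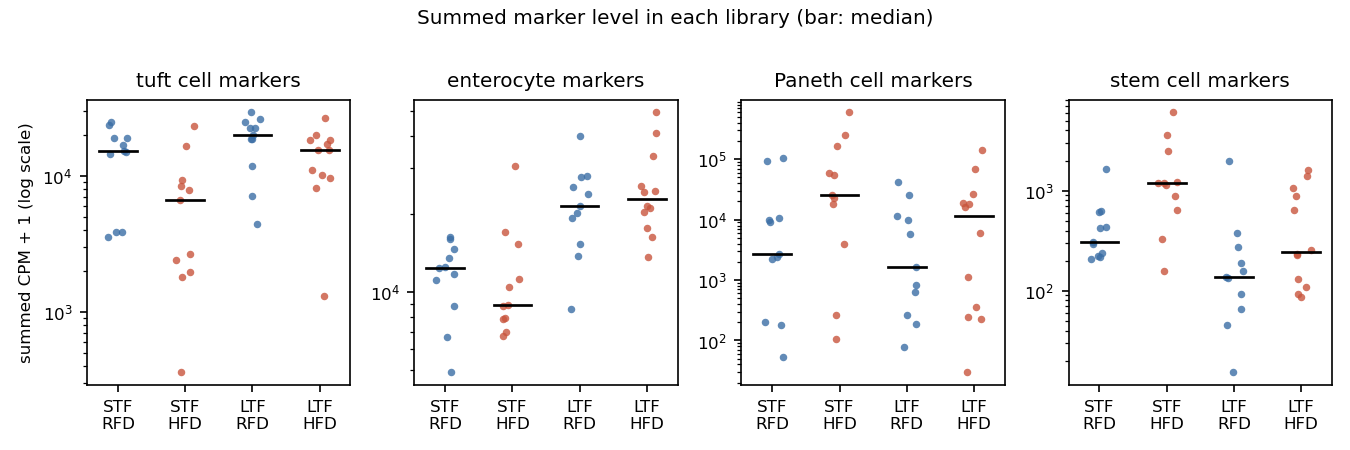
Summed CPM (log scale, with 1 added) of the tuft, enterocyte, Paneth and stem cell markers in each library by set and diet; points are libraries (blue RFD, red HFD) and bars medians. The tuft cell marker median at 9 weeks was 15370 CPM on RFD against 6706 CPM on HFD, and the Paneth cell marker median 2666 and 26005 CPM. No single tuft or Paneth cell marker was called by edgeR at that time.

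At 9 weeks, 9 of the 38 genes rose on HFD, namely Acadvl, Hadha, Hadhb, Acaa2, Etfa and Etfdh of mitochondria and Abcd3, Hsd17b4 and Eci2 of peroxisomes. At 22 weeks, 7 rose, namely Acadvl, Acadl, Hadhb and Acaa2 of mitochondria and Abcd3, Hsd17b4 and Acaa1b of peroxisomes. No gene of the group fell at either time. Here and below, a change is an adjusted p under 0.1 in the quasi-likelihood test of edgeR, with Benjamini-Hochberg adjustment over all 14020 genes, with n = 11 mice per diet at 9 weeks and 11 and 12 at 22 weeks. Of all genes tested, 2.00% rose and 1.33% fell at 9 weeks, and 0.435% rose and 0.357% fell at 22 weeks. Log2 fold changes are HFD over RFD throughout. Over the 38 genes their median was 0.44 at 9 weeks and 0.48 at 22 weeks, against -0.05 and -0.03 over all genes tested. They were above 0 for 33 and 36 of the 38 genes, against 47.3% and 47.9% of all genes tested. An unadjusted p under 0.05 in the higher direction was reached by 14 and 19 of the 38, against 9.73% and 4.69% of all genes. In the lower direction it was reached by none at 9 weeks and by Acad12 at 22 weeks, and DESeq2 and limma also called no gene of the group lower. As the 38 genes were chosen with earlier results of these data known, these comparisons with all genes are a description. In bulk samples, a change in the share of cells of a type and a change in the RNA per cell cannot be told apart.

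**Figure D2:**
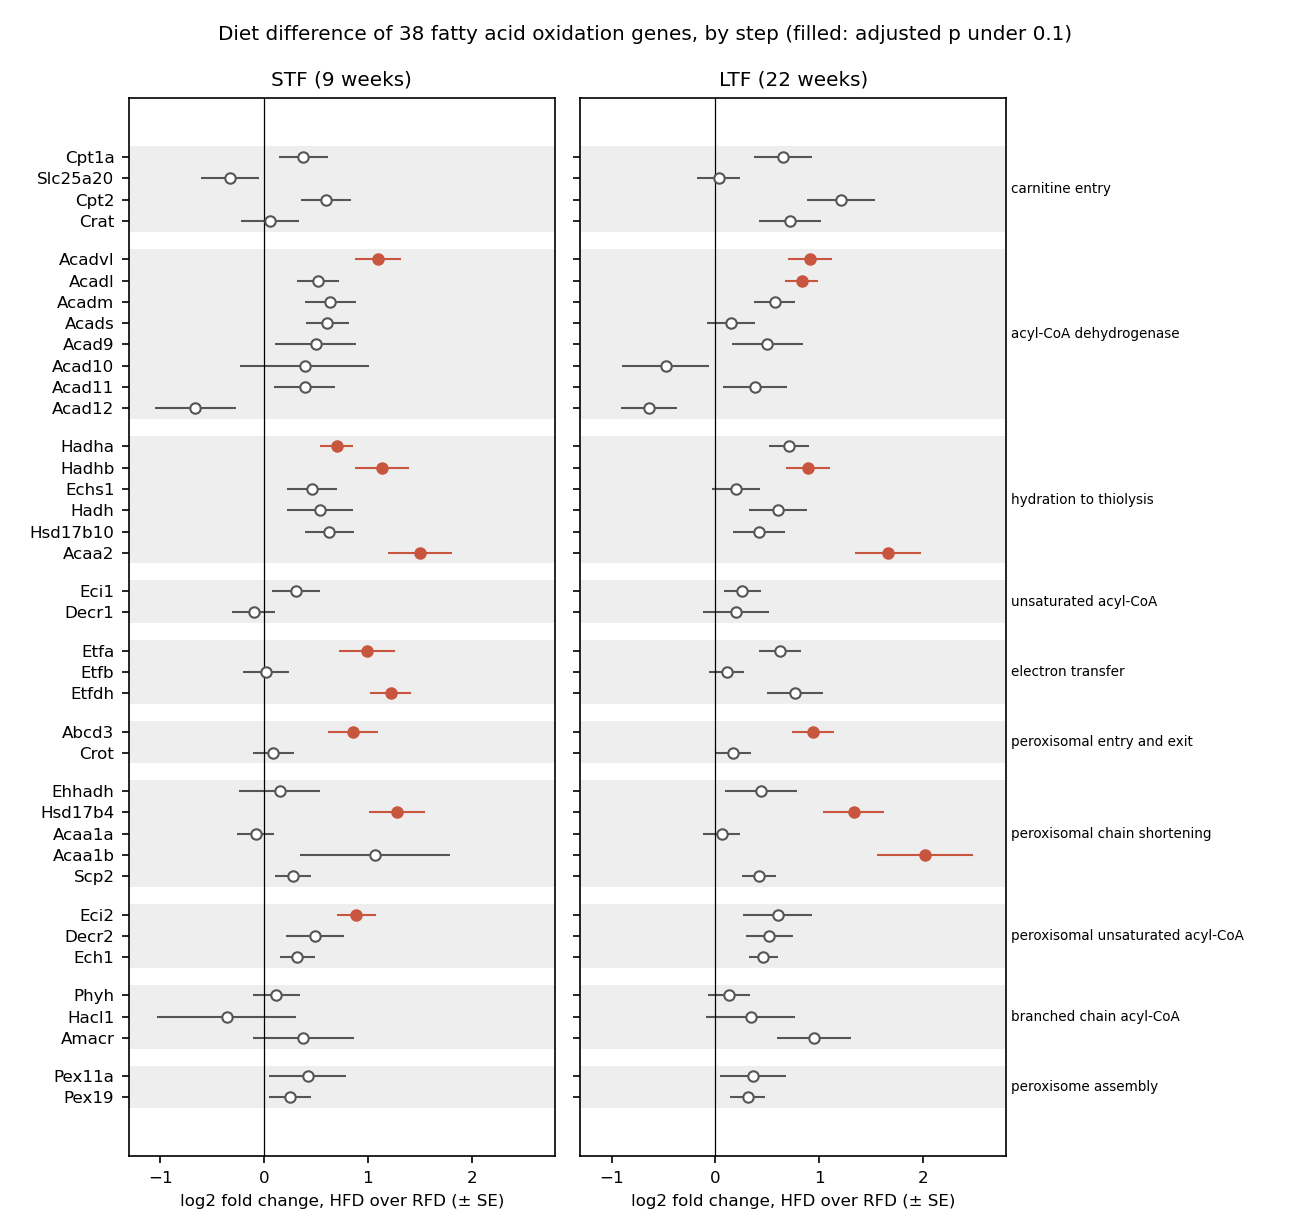
Log2 fold change (HFD over RFD) with its standard error for the 38 genes by step, at 9 weeks (left) and 22 weeks (right); filled points have an adjusted p under 0.1. The points lie to the right of 0 for 33 genes at 9 weeks and 36 at 22 weeks, and the largest values are 1.5 for Acaa2 at 9 weeks and 2.02 for Acaa1b at 22 weeks.

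Levels between genes were compared as TPM, which are scaled by transcript length and library total. Etfb, the beta subunit of the electron transfer flavoprotein, had the highest median in 3 of the 4 groups, with 442.0, 464.0 and 520.0 TPM in STF RFD, STF HFD and LTF RFD. In LTF HFD, Scp2, which encodes a peroxisomal thiolase and a lipid transfer protein, was first with a median of 747.0 TPM. Both levels are uncertain, since Gm45233 overlaps 53.0% of the Etfb exon bases on the same strand and Scp2-ps2 is 99.6% identical to Scp2 over 1371 bases. Acad10 was lowest of the 38 in both HFD groups, with medians of 1.97 and 2.35 TPM. Acaa2 was 6th on RFD and 3rd on HFD at 9 weeks, with medians of 79.7 and 208.0 TPM. The summed level of the 38 genes ranged from 1106 to 3456 TPM on RFD and from 761 to 4700 TPM on HFD at 9 weeks, so the diets overlapped. At 22 weeks it ranged from 2281 to 4008 TPM on RFD and from 2953 to 5238 TPM on HFD, with medians of 2949 and 4381 TPM.

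**Figure D3:**
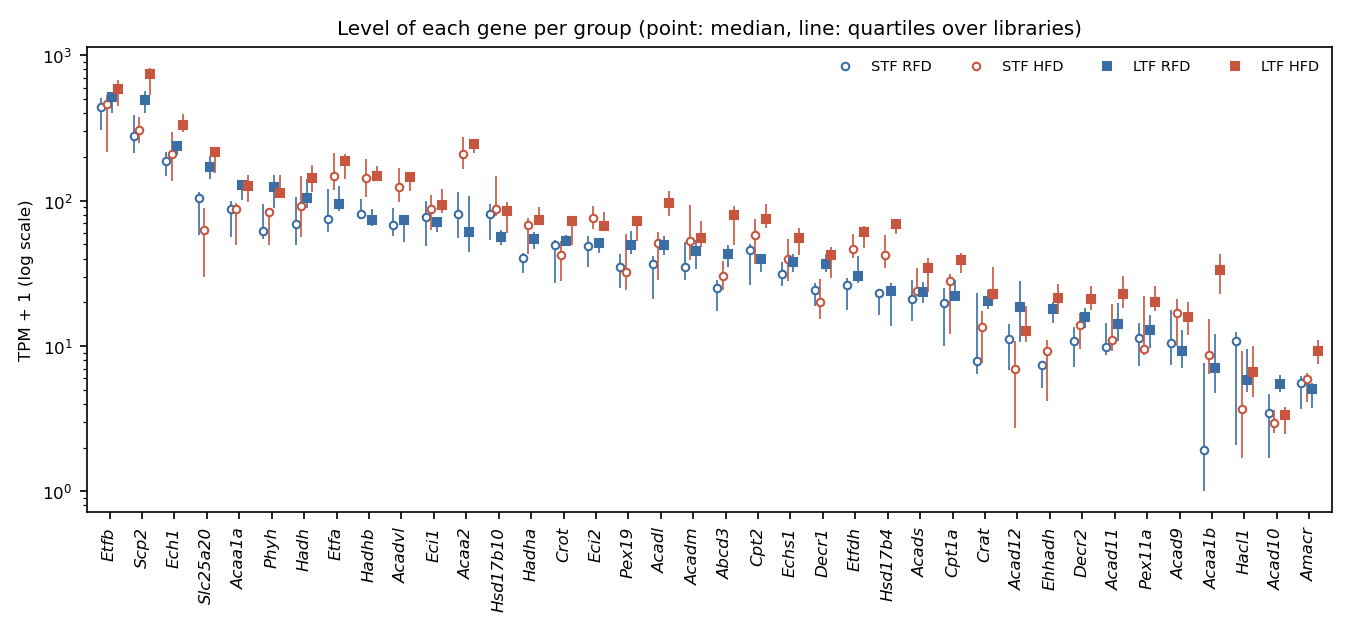
Median TPM (log scale, with 1 added) of each gene in the 4 groups, ordered by the LTF RFD median, with lines for the quartiles over libraries (blue RFD, red HFD, open points STF, filled LTF). Etfb and Scp2 stand at the top with medians of 280.0 TPM or more, and Acad10 and Amacr near the bottom.

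The carnitine shuttle brings long-chain acyl groups into the mitochondrial matrix, and none of its 4 genes passed the threshold at either time in the main fit. Cpt1a encodes the rate-limiting enzyme of the shuttle at the outer membrane. Its level ranged from 25.5 to 148.0 CPM on RFD (median 89.5) and from 76.6 to 156.0 CPM on HFD (median 116.0) at 9 weeks, and from 2.70 to 165.0 CPM (median 117.0) and from 124.0 to 208.0 CPM (median 182.0) at 22 weeks. The groups overlapped, although 9 of 12 HFD libraries lay above every RFD library at 22 weeks. The log2 fold changes of Cpt1a were 0.38 (adjusted p = 0.412, SE 0.24) and 0.65 (adjusted p = 0.42, SE 0.28).

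Cpt2, which returns the acyl groups to CoA inside the matrix, had the largest values of this step, 0.60 (adjusted p = 0.182) in the STF set and 1.21 (adjusted p = 0.113) in the LTF set. For Cpt2, 10 of 12 HFD libraries were above every RFD library at 22 weeks. Without the library of mouse 3, in which Cpt2 had no read, Cpt1a and Cpt2 were called at 22 weeks. Cpt2 was also called then with DESeq2, with DESeq2 size factors in edgeR, with no filter on low counts and with all libraries in 1 fit. At 9 weeks it was called with DESeq2 and with the enterocyte marker score, and the other alternatives did not call it. Crat encodes carnitine acetyltransferase, which buffers acetyl-CoA. Its level ranged from 12 to 63.9 CPM on RFD (median 30.6) and from 16 to 56.8 CPM on HFD (median 34.9) at 9 weeks, and from 3.59 to 84 CPM (median 58.5) and from 44.9 to 201.0 CPM (median 76.5) at 22 weeks. The diets overlapped at both times, and its log2 fold changes were 0.06 (adjusted p = 0.945, SE 0.28) and 0.72 (adjusted p = 0.412, SE 0.30). The translocase gene Slc25a20 had log2 fold changes of -0.33 and 0.03.

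Of the 8 acyl-CoA dehydrogenase genes, which encode the enzymes of the first oxidation or their relatives, Acadvl rose at both times and Acadl at 22 weeks. Acadvl acts on very long chains and is annotated at chr11:70010183-70015411 (minus strand, GRCm38). At 9 weeks its level ranged from 89.1 to 263.0 CPM on RFD (median 143.0) and from 204.0 to 488.0 CPM on HFD (median 346.0). All 11 HFD libraries were above the RFD median and 8 were above every RFD library. The log2 fold change was 1.10 (adjusted p = 0.0176, SE 0.22). At 22 weeks Acadvl ranged from 106.0 to 288.0 CPM on RFD (median 151.0) and from 161.0 to 577.0 CPM on HFD (median 280.0), with 12 of 12 HFD libraries above the RFD median and a log2 fold change of 0.91 (adjusted p = 0.0428, SE 0.21). Exons of Dvl2, on the opposite strand, overlap 42.9% of the Acadvl exon bases, and the libraries do not mark strand, but Dvl2 itself was low, with group medians from 3.53 to 7.82 CPM and log2 fold changes of 0.11 and -0.13.

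Acadl encodes the long-chain dehydrogenase. At 22 weeks it ranged from 70.9 to 134.0 CPM on RFD (median 99.1) and from 96.4 to 236.0 CPM on HFD (median 184.0), and 11 of 12 HFD libraries were above every RFD library. The log2 fold change was 0.83 (adjusted p = 0.00979, SE 0.16), and at 9 weeks it was 0.52 (adjusted p = 0.175, SE 0.20). At 9 weeks the level was 31.8 to 116.0 CPM on RFD (median 73.0) and 69.2 to 132.0 CPM on HFD (median 91.2), so that only 1 HFD library was above every RFD library.

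Acadm, the medium-chain enzyme, did not pass the threshold at either time. It ranged from 44.2 to 195.0 CPM on RFD (median 73.2) and from 40.4 to 200 CPM on HFD (median 138.0) at 9 weeks, and from 48.6 to 140.0 CPM (median 73.3) and from 64 to 184.0 CPM (median 113.0) at 22 weeks. The diets overlapped, and the log2 fold changes of 0.64 (SE 0.25) and 0.57 (SE 0.20) had adjusted p = 0.178 and 0.271. Acad9, which is also an assembly factor of respiratory complex I, ranged from 2.00 to 57.3 CPM on RFD (median 29.6) and from 6.73 to 70.9 CPM on HFD (median 42.5) at 9 weeks. At 22 weeks it ranged from 4.98 to 88.0 CPM (median 21.6) and from 13.3 to 74.6 CPM (median 41.4), again with overlap, and its log2 fold change was 0.50 at both times (SE 0.39 and 0.34, adjusted p = 0.518 and 0.648). The other 4 genes of the step were not called, and Acad12 was the gene with values below 0 at both times, -0.66 and -0.64, of which the first turned to 0.21 with the tuft cell marker covariate. Acad10 and Acad12 share transcript stretches that are 95.3% identical over 1614 bases, so the reads of these 2 genes are uncertain.

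In the steps from hydration to thiolysis, 3 of 6 genes were called at 9 weeks and 2 of 6 at 22 weeks, and all 6 log2 fold changes were above 0 at both times. Acaa2 encodes the thiolase that releases acetyl-CoA in the mitochondrial matrix. It ranged from 46.8 to 317.0 CPM on RFD (median 115.0) and from 89.4 to 626.0 CPM on HFD (median 472.0) at 9 weeks. Of the 11 HFD libraries, 8 were above every RFD library and 10 were above the RFD median. The log2 fold change was 1.5 (adjusted p = 0.027, SE 0.31). At 22 weeks the level of Acaa2 was 31.5 to 332.0 CPM on RFD (median 98.8) and 91.6 to 753.0 CPM on HFD (median 330.0), with a log2 fold change of 1.66 (adjusted p = 0.0122, SE 0.32). Acaa2 and Acadl at 22 weeks were called under every one of the 14 alternatives run.

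Hadha and Hadhb encode the alpha and beta subunits of the trifunctional protein, which carries out the last 3 reactions of the cycle on long chains. Hadha ranged from 97.4 to 142.0 CPM on RFD (median 121.0) and from 107.0 to 256.0 CPM on HFD (median 196.0) at 9 weeks, and 10 of 11 HFD libraries were above every RFD library. Its log2 fold change was 0.70 (adjusted p = 0.0434, SE 0.16). At 22 weeks Hadha ranged from 99.6 to 233.0 CPM on RFD (median 122.0) and from 131.0 to 380.0 CPM on HFD (median 242.0), and the log2 fold change of 0.71 (adjusted p = 0.113, SE 0.19) missed the threshold.

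Hadhb ranged from 74.9 to 316.0 CPM on RFD (median 168.0) and from 108.0 to 709.0 CPM on HFD (median 444.0) at 9 weeks, a log2 fold change of 1.14 (adjusted p = 0.0351, SE 0.26). At 22 weeks it was 111.0 to 355.0 CPM on RFD (median 158.0) and 159.0 to 571.0 CPM on HFD (median 294.0), with 12 of 12 HFD libraries above the RFD median and a log2 fold change of 0.89 (adjusted p = 0.0428, SE 0.21). A processed pseudogene, Gm13910, is 99.8% identical to Hadhb over 1428 bases, and another copy, Gm9108, is 97.6% identical over 1426 bases. Gm13910 had group medians of 1.67 to 7.16 CPM and log2 fold changes of 1.38 and 1.16, and how reads were divided among these copies is uncertain. Within a library, the log2 ratio of Hadhb to Hadha, chosen after the values were seen, was higher on HFD by 0.42 at 9 weeks and 0.18 at 22 weeks. Its SD between libraries was 0.58 on RFD and 0.68 on HFD at 9 weeks, and 0.51 and 0.20 at 22 weeks. The other genes of these steps, Echs1, Hadh and Hsd17b10, had log2 fold changes of 0.20 to 0.63 and were not called. Eci1 and Decr1, which handle the double bonds of unsaturated chains, lay between -0.10 and 0.31.

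The electron transfer flavoprotein, made of the products of Etfa and Etfb, takes electrons from the acyl-CoA dehydrogenases, and Etfdh encodes the membrane dehydrogenase that passes them on to ubiquinone. Etfa and Etfdh rose at 9 weeks and Etfb was not called. Etfdh ranged from 38.8 to 79.1 CPM on RFD (median 60.5) and from 72.6 to 201.0 CPM on HFD (median 130), so that 10 of 11 HFD libraries were above every RFD library and 9 of 11 RFD libraries were below every HFD library. Its log2 fold change of 1.22 (adjusted p = 0.0058, SE 0.20) had the smallest p of the 38 genes at this time. The low gene 4930579G24Rik overlaps 3.70% of its exon bases on the opposite strand. At 22 weeks Etfdh ranged from 7.19 to 170.0 CPM on RFD (median 79.2) and from 75.1 to 211.0 CPM on HFD (median 154.0), and the log2 fold change of 0.77 (adjusted p = 0.271, SE 0.27) was not called.

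Etfa, whose promoter is printed above, ranged from 57.5 to 249.0 CPM on RFD (median 127.0) and from 69.7 to 388.0 CPM on HFD (median 306.0) at 9 weeks, and 7 of 11 HFD libraries were above every RFD library. The log2 fold change was 0.99 (adjusted p = 0.0662, SE 0.27), and it was no longer called once the 2 shallowest libraries were left out. Etfa at 22 weeks was at 96.9 to 319.0 CPM on RFD (median 129.0) and 144.0 to 423.0 CPM on HFD (median 213.0), with a log2 fold change of 0.62 (adjusted p = 0.23, SE 0.20). Etfb had log2 fold changes of 0.02 and 0.11, and at 9 weeks it was -0.05 with limma on TPM and -0.02 with limma on counts. The log2 ratio of Etfa to Etfb within a library was higher on HFD by 0.86 at 9 weeks and 0.52 at 22 weeks. Its SD between libraries was 1.01 on RFD and 1.03 on HFD at 9 weeks, and 0.80 and 0.64 at 22 weeks. This ratio was also chosen after the values were seen, so whether these subunits changed unequally was not decided.

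In peroxisomes, Abcd3 and Hsd17b4 rose at both times. Abcd3 encodes a transporter of acyl-CoAs in the peroxisomal membrane. At 9 weeks it ranged from 31.8 to 128.0 CPM on RFD (median 82.1) and from 66.6 to 248.0 CPM on HFD (median 140.0), with 6 of 11 HFD libraries above every RFD library and a log2 fold change of 0.86 (adjusted p = 0.0721, SE 0.24). It too was no longer called once the 2 shallowest libraries were left out. At 22 weeks Abcd3 ranged from 79.1 to 248.0 CPM on RFD (median 142.0) and from 144.0 to 481.0 CPM on HFD (median 273.0), with 9 of 12 HFD libraries above every RFD library and a log2 fold change of 0.94 (adjusted p = 0.0277, SE 0.20). Crot, which makes carnitine esters of the shortened products for export, had log2 fold changes of 0.09 and 0.17.

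Hsd17b4 and Ehhadh encode bifunctional enzymes that act on different substrates, and of these Hsd17b4 was called and Ehhadh was not. Hsd17b4 ranged from 17.3 to 125.0 CPM on RFD (median 61.0) and from 46.2 to 209.0 CPM on HFD (median 158.0) at 9 weeks, a log2 fold change of 1.28 (adjusted p = 0.0291, SE 0.27). At 22 weeks it ranged from 30.7 to 213.0 CPM on RFD (median 65.3) and from 54.6 to 302.0 CPM on HFD (median 183.0), a log2 fold change of 1.33 (adjusted p = 0.026, SE 0.29), and 11 of 12 HFD libraries were above the RFD median. Ehhadh ranged from 10.1 to 89.1 CPM on RFD (median 20.3) and from 2.88 to 44.3 CPM on HFD (median 31.2) at 9 weeks, where its log2 fold change of 0.15 (adjusted p = 0.889, SE 0.39) was -0.11 with limma on TPM. At 22 weeks Ehhadh ranged from 0 to 93.9 CPM (median 53.3) and from 34.4 to 127.0 CPM (median 77.3), a log2 fold change of 0.44 (adjusted p = 0.715, SE 0.35). Whether Hsd17b4 and Ehhadh differed from each other was not tested.

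Acaa1a and Acaa1b encode peroxisomal thiolases. Acaa1b was the scarcer of the pair and was called at 22 weeks, when it ranged from 0 to 30.7 CPM on RFD (median 9.72, 1 library without a read) and from 7.41 to 101.0 CPM on HFD (median 53.0). Of 12 HFD libraries, 10 were above every RFD library. The log2 fold change was 2.02 (adjusted p = 0.0349, SE 0.46). At 9 weeks Acaa1b ranged from 0 to 54.6 CPM on RFD (median 2.33, 4 libraries without a read) and from 0.962 to 43.6 CPM on HFD (median 17.3), with a log2 fold change of 1.07 (adjusted p = 0.447, SE 0.72). Among the alternatives, only limma on counts called Acaa1b at that time. Acaa1a had medians of 151.0 and 143.0 CPM at 9 weeks and 222.0 and 224.0 CPM at 22 weeks, and log2 fold changes of -0.08 and 0.06. The log2 ratio of Acaa1b to Acaa1a within a library, on CPM with 1 added, was -4.54 ± 1.41 on RFD and -2.41 ± 0.90 on HFD at 22 weeks (SD, n = 11 and 12), a difference of 2.13. The ratio was chosen after the values were seen and is given as a description. For that reason the p-values of a permutation test run on this and the other ratios are left out. At 9 weeks the difference was 2.11, which rests in part on the 1 CPM added to the 4 RFD libraries without a read. As the transcripts are near-identical, the division of reads between this pair by the counting is uncertain.

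Scp2 had log2 fold changes of 0.28 and 0.42 and was called only without the library of mouse 3. Among the enzymes for unsaturated chains, Eci2 rose at 9 weeks, where it ranged from 39.5 to 80 CPM on RFD (median 56.5) and from 47.1 to 144.0 CPM on HFD (median 100). In 10 of 11 HFD libraries Eci2 was above every RFD library, and its log2 fold change was 0.89 (adjusted p = 0.0321, SE 0.19). At 22 weeks it ranged from 0 to 88.6 CPM on RFD (median 56.9) and from 46.6 to 132.0 CPM on HFD (median 86.2), with a log2 fold change of 0.60 (adjusted p = 0.544, SE 0.33). Decr2 and Ech1 lay between 0.32 and 0.52 and were not called. Neither were the 3 genes of branched chain breakdown (Phyh, Hacl1 and Amacr), with values of -0.36 to 0.95, nor Pex11a and Pex19 of peroxisome division and assembly, with values of 0.25 to 0.42.

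**Figure D4:**
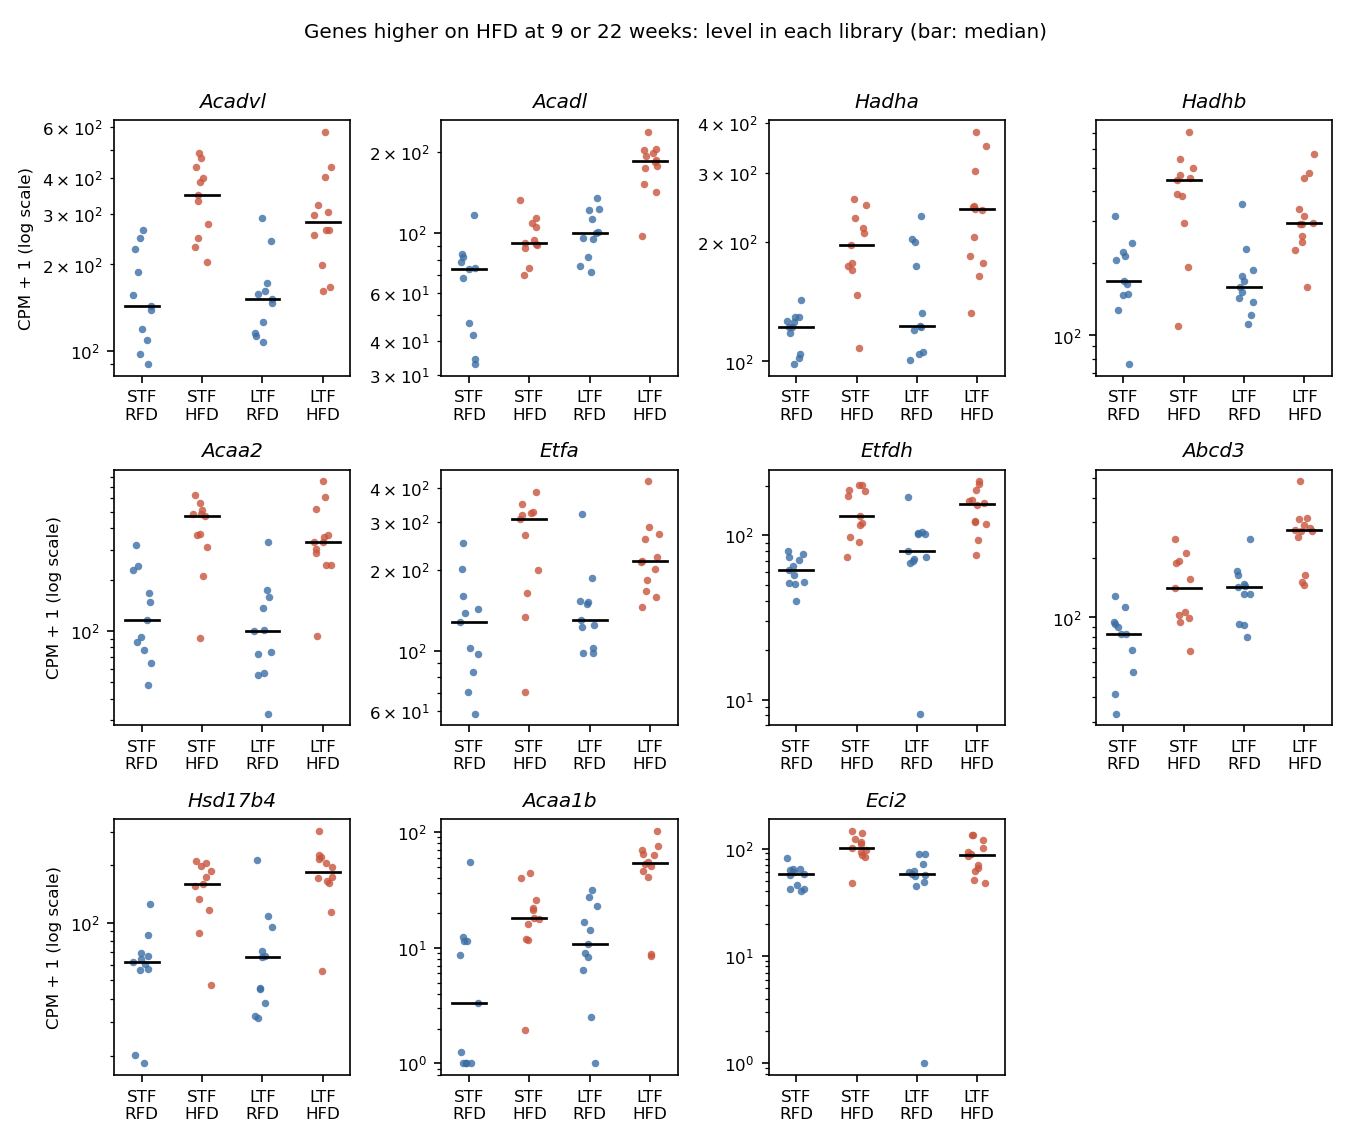
CPM with 1 added (log scale) of the 11 genes called at 9 or 22 weeks, for each library of the 4 groups (blue RFD, red HFD); bars are medians. The HFD points lie mostly above the RFD points in both sets, and the groups overlap in every panel; for Etfdh at 9 weeks, 10 of 11 HFD libraries are above every RFD library.

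Genes around these steps were counted by the same rule. Of 6 tested genes that supply carnitine or control entry, none was called at 9 weeks (1 with unadjusted p under 0.05, 2 called by DESeq2 and 1 by limma). At 22 weeks Aldh9a1, an enzyme of carnitine synthesis, rose from 157.0 to 343.0 CPM on RFD (median 236.0) to 285.0 to 528.0 CPM on HFD (median 389.0), a log2 fold change of 0.73 (adjusted p = 0.026, SE 0.16). Of 7 tested other dehydrogenases and partners of the electron transfer flavoprotein, none was called by edgeR at either time, with 2 and 1 at unadjusted p under 0.05, 0 by DESeq2 at both times, and 1 and 0 by limma. Their median log2 fold changes were 0.68 and 0.51.

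Of 11 tested other peroxisomal fatty acid enzymes, none was called at 9 weeks (4 with unadjusted p under 0.05, 1 by DESeq2, 0 by limma), and Slc27a2, a very long chain acyl-CoA synthetase and fatty acid transporter, rose at 22 weeks. It ranged from 24.3 to 83.3 CPM on RFD (median 43.7) and from 60.7 to 189.0 CPM on HFD (median 123.0), a log2 fold change of 1.34 (adjusted p = 0.0064, SE 0.24). Of 14 other assembly factors of peroxisomes, none was called at 9 weeks (1 with unadjusted p under 0.05, 0 by DESeq2 and limma), and at 22 weeks Pex6 fell by 1.45 on the log2 scale (adjusted p = 0.0339, SE 0.33), from a median of 15.7 CPM on RFD to 5.96 CPM on HFD.

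Both sets called 5 genes in common, Acadvl, Hadhb, Acaa2, Abcd3 and Hsd17b4, which is 55.6% of those called at 9 weeks and 71.4% of those called at 22 weeks. Of all genes tested, 0.171% rose in both sets. The sets hold different mice and no shared controls. Whether the diet difference itself differed between the sets was tested as the interaction of diet and set over all 45 libraries. No gene of the 38 passed, and 0% of all genes tested did. The smallest unadjusted p of the 38 was 0.0921, for Crat, so that none was under 0.05, against 3.22% of all genes, and DESeq2 and limma also called none of the 38. The interaction values (LTF minus STF) ranged from -0.81 for Acad10 to 1.01 for Acaa1b, with standard errors of 0.74 and 0.86. A gene called in 1 set and not in the other is therefore not shown to differ between them.

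The mouse numbers form 3 series (1 to 8, the multiples of 10, and 21 to 64), each with both diets in both sets, and mouse 84 of STF RFD and mouse 65 of LTF HFD belong to none and were left out here and in the fits with the series as a term. The difference between the diets was recomputed within each series on log2(CPM + 1), with 3 or 4 libraries per diet. Of the 38 genes, 30, 35 and 24 were above 0 in the STF set and 35, 29 and 36 in the LTF set. The medians over the 38 genes in these series were 0.55, 0.76 and 0.26 for the STF set, against 0.74, 0.34 and 0.56 for the LTF set. The series also differed in marker reads. In the STF set, tuft cell markers took 0.239 to 2.02% of the reads in the series 1 to 8. They took 0.0198 to 1% in the multiples of 10 and 0.943 to 2.46% in 21 to 64. In the LTF set, the series 1 to 8 holds mouse 3 on RFD. Whether these points bear on the medians was not tested. The labels do not say what the series are.

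At 9 weeks fewer genes were called, of the 38 and of all 14020, once tuft or Paneth cell markers were allowed for. With the tuft cell marker score as a covariate, 1 of the 38 genes was called, Etfdh, and with the Paneth cell marker score 2 were, Acadvl and Etfdh. Without the 8 libraries that had under 0.5% of reads on the tuft cell markers, Etfdh alone was called, at 8 RFD and 6 HFD libraries. Without the 6 libraries that had over 5% of reads on the Paneth cell markers, 6 genes were called (Acadvl, Hsd17b4, Etfdh, Etfa, Acaa2 and Hadhb). The median log2 fold change over the 38 genes was 0.32, 0.31, 0.28 and 0.37 in these 4 fits, and 15, 18, 112 and 297 of all genes were called, against 466. The 9 genes were picked by their calls in these same libraries, so their values above 0 are no separate test. Their log2 fold changes were 0.47 to 0.99, 0.61 to 1.19, 0.51 to 1.22 and 0.66 to 1.49, against 0.70 to 1.5 as reported above. With the enterocyte marker score as a covariate, 12 of the 38 genes were called, and 1337 of all genes against 466.

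At 22 weeks the calls were fewer without the 2 HFD libraries of many Paneth marker reads, when Acadl and Acaa2 alone were called, the median was 0.37 and 31 of all genes were called, against 111. The log2 fold changes of the 7 genes were then 0.70 to 1.99, against 0.83 to 2.02, with Hsd17b4 at 1.20 and Acaa1b at 1.99. The tuft, Paneth and enterocyte marker scores as covariates left 9, 7 and 7 genes called, and 156, 112 and 123 of all genes. Without the library of mouse 3 on RFD, 11 genes were called, the 7 and Cpt1a, Cpt2, Hadha and Scp2, and 241 of all genes. On the TPM scale, with 1 added, limma called none of the 38 at 9 weeks and 6 at 22 weeks, and 9 and 51 of all genes. How much the cells other than tuft cells contributed to each gene was not tested.

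**Figure D5:**
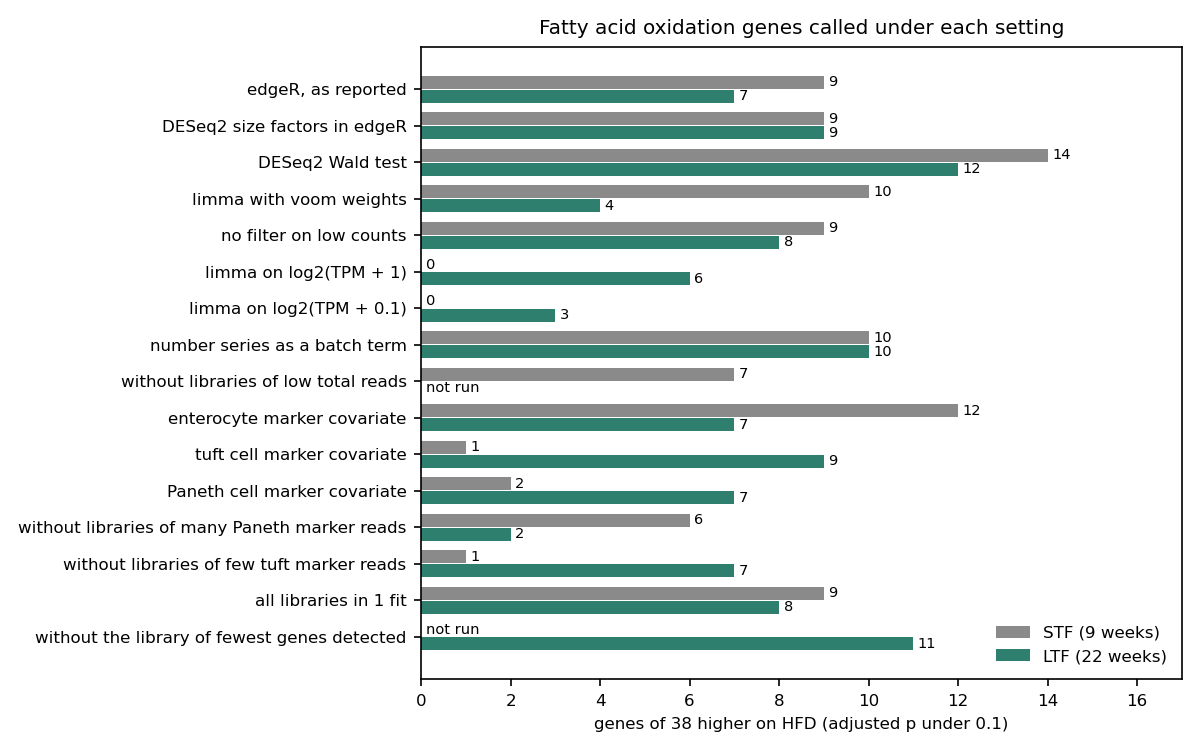
Number of the 38 genes called higher on HFD (x axis, adjusted p under 0.1) under each setting (y axis) at 9 weeks (grey) and 22 weeks (green). The bars range from 0 to 14 genes at 9 weeks and from 2 to 12 at 22 weeks; no gene was called lower under any of them, and 2 settings were run in 1 set only.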

How the data were processed

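RNA of sorted tuft cells was amplified by Smart-seq2 (19 cycles) and sequenced from Nextera XT libraries. The authors trimmed reads with Cutadapt 1.15, aligned them with STAR 2.6.0 and deposited RSEM expected counts and TPM per gene; the submitters' processing notes name GRCm38. The authors' weighing of counts by cell type proportions was not repeated. Of 69 columns, 24 matched no sample here and were not used. Symbols came from GENCODE M21. Counts were rounded, genes with more than 5 reads in at least 6 of 45 libraries were kept, and each set was fitted alone with edgeR 4.0.16 (TMM, robust quasi-likelihood, R 4.3.3). DESeq2 1.42.0, limma 3.58.1 and other settings served as alternatives. P-values are Benjamini-Hochberg adjusted, and the 0.1 threshold is the study's. The members and lists were chosen with earlier results of these data known. Called genes and 8 enzymes named by list (Cpt1a, Acadm, Acadvl, Etfdh, Ehhadh, Acaa1b, Crat, Acad9) are given in full, and the rest by counts and range. Near-identical transcripts were found with BLAST 2.17.0 (at least 95% over 1200 bases). The sequences are RefSeq's (GRCm38.p6 table). RSEM divides reads shared between genes, and 8.79% of counts above 0 were not whole. The edgeR script was tested on simulated data.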

Additional observations from a re-analysis of the deposited data

How the results depend on the processing

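No gene of the 38 was called lower under any alternative, and the median log2 fold change over them stayed between 0.28 and 0.51 at 9 weeks and between 0.37 and 0.53 at 22 weeks. The number called higher at 9 weeks (9) was 14 with DESeq2's Wald test, 0 with limma on log2(TPM + 1) and on log2(TPM + 0.1), 1 with the tuft cell marker covariate and without the libraries of few tuft marker reads, and 2 with the Paneth cell marker covariate. At 22 weeks (7) it was 12 with DESeq2, 4 with limma's voom, 3 on log2(TPM + 0.1), 2 without the libraries of many Paneth marker reads and 11 without the library of fewest genes detected (mouse 3 on RFD). The other alternatives gave 6 to 12 at 9 weeks and 6 to 10 at 22 weeks. Of the 16 calls, Acadl and Acaa2 at 22 weeks held under all 14 alternatives. The Paneth cell marker covariate and the exclusions by Paneth marker reads, tuft marker reads and genes detected were chosen after seeing the data.

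Of all genes, 466 were called at 9 weeks, and this was 1534 with DESeq2, 1630 with voom, 1698 with no filter, 9 and 5 on log2(TPM + 1) and log2(TPM + 0.1), 290 without libraries of low total reads, 1337 and 15 with the enterocyte and tuft marker covariates, 18 with the Paneth covariate, 297 without libraries of many Paneth marker reads and 112 without those of few tuft marker reads. At 22 weeks 111 were called, and this was 351 with DESeq2, 46 with voom, 435 with no filter, 51 and 31 on log2(TPM + 1) and log2(TPM + 0.1), 185 with the number series, 241 without the library of fewest genes, 31 without libraries of many Paneth marker reads and 63 with all libraries in 1 fit. The share that was higher among them was 60.1% and 55.0%, and ranged from 33.3 to 100% at 9 weeks and from 34 to 78.4% at 22 weeks. The interaction called no gene except 65 of all genes with no filter. The causes were not tested. On log2(TPM + 0.1) the median of all genes at 9 weeks was -0.11.

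Sign changes concerned genes that were not called. At 9 weeks, Etfb went to -0.0017 with DESeq2, -0.02 with voom and with the enterocyte covariate, -0.05 on both TPM scales, -0.08 without low totals, and -0.01 in 1 fit of all libraries and without few tuft reads. Crat went to -0.0013 with voom, -0.03 with the number series, -0.01 without low totals, and -0.08 with the tuft covariate and without few tuft reads. Ehhadh went to -0.11 and -0.19 on the TPM scales, -0.04 with the number series, -0.49 and -0.07 with the tuft and Paneth covariates and -0.01 without many Paneth reads. Phyh went to -0.02 on both TPM scales, -0.01 with the number series, -0.27 and -0.10 with the tuft and Paneth covariates and -0.11 without few tuft reads. Crot went to -0.01 on both TPM scales and without few tuft reads. Acaa1a went to 0.06 with the number series and to 0.15 and 0.01 with the tuft and Paneth covariates. With the tuft covariate Slc25a20 was 0.31, Acad9 -0.08, Acad10 -0.04, Acad12 0.21, Hadh -0.17 and Amacr -0.40, with the Paneth covariate Amacr was -0.07, and without few tuft reads Acad10 was -0.06 and Pex11a -0.0049. At 22 weeks Acaa1a went to -0.02 and Phyh to -0.0011 with the enterocyte covariate, and Slc25a20 to -0.04 without the library of fewest genes.

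The mouse numbers are shared between the sets but belong to different mice. Of 16 shared numbers, 2 had a correlation over 0.1 between their deviations (median -0.159), so they do not pair the libraries, and the interaction fit with the mouse number as a replicate block called 0 genes. The LTF set held no library of low total reads, so that alternative was not run there. Acaa1b rests on few reads, with a median of 5 reads per RFD library at 9 weeks.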
